A study of Homo sapiens with 4 samples.

Results

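Lysosomes are the acidic compartments in which cells break down proteins, glycans and lipids, and the V-ATPase is the rotary proton pump that acidifies them. The 39 genes described here encode 16 V-ATPase subunits, 8 cathepsins and other peptidases, 9 further hydrolases, the precursor of the sphingolipid activators (PSAP), 3 lysosomal membrane proteins and 2 transcription factors of the pathway. They were taken by symbol, with no threshold on measured values, and all 39 were among the 18917 genes of the count table, CTSL under its older symbol CTSL1. Their RNA was compared between wild-type (WT) and THUMPD1 knockout (KO) cells of the human embryonic kidney line that the labels call HEK293 and the study HEK-293T. THUMPD1 is an RNA-binding adaptor that assists the acetylation of cytidine in leucine and serine tRNAs. Each genotype had 2 libraries of total RNA depleted of ribosomal RNA, and both genotypes grew in the same medium without treatment. KO cells were made with Cas9 and a pair of guides and were sorted as single cells, so genotype and clone cannot be told apart. Nothing in the labels says that the 2 libraries of a genotype came from separate cultures, so p-values measure the spread between these libraries, which may be technical.

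The pump has a membrane sector, V0, that carries protons, and a cytosolic sector, V1, that hydrolyses ATP, and the 2 sectors can come apart. Most soluble lysosomal enzymes carry a mannose 6-phosphate tag that directs them to the organelle. TFEB and TFE3, both of the MiT/TFE family, switch many of these genes on through E-box sequences in their promoters, and the Rag GTPases with the kinase mTORC1 hold both factors in the cytosol when amino acids are plentiful.

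Library totals ran from 7875722 to 11362363 counts, at which 3 counts were worth between 0.259 and 0.391 counts per 1000000 counts of the scaled library (CPM). THUMPD1 itself was counted 356 and 468 times in WT and 71 and 58 times in KO libraries (log2 fold change -2.93, edgeR adjusted p = 1.27e-12), as the labels have it. All 5 markers of the line (NEFL, NEFM, PAX2, LIN28B and VIM) had at least 51 counts in every library. Their summed level was 667 and 659 CPM in WT and 539 and 572 CPM in KO libraries. NEFM, a neurofilament gene, was lower in KO cells at a log2 fold change of -2.87 (edgeR adjusted p = 4.1e-18). It had 185 and 177 CPM in WT and 26.3 and 23 CPM in KO libraries. The other markers lay above 0. NEFL, also a neurofilament gene, was called higher at 0.34 (edgeR adjusted p = 0.00903). PAX2 (0.15), LIN28B (0.08) and VIM (0.11) were not called. Of 8 markers of blood, liver, endothelial and squamous cells, 7 had at most 5 counts in every library, HBB and KRT5 were at 0 throughout, and the sum over the 8 was between 2.5 and 3.94 CPM. The eighth, CD68, encodes a lysosomal protein of macrophages.

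In the comparison of KO with WT cells, cathepsin Z (CTSZ) and the transcription factor TFEB were at 0.445 and 0.501 times their WT level. Also lower were TFE3, 3 of 6 subunits of the V0 sector and the V1 subunit ATP6V1F, while PSAP, the sialidase NEU1, the hexosaminidase subunit HEXA and the V1 subunit ATP6V1G1 rose by at most 0.40 on the log2 scale. Of the 38 genes that could be tested, 4 were higher, 7 were lower and 27 did not pass the test (edgeR's quasi-likelihood test, adjusted p under 0.05 over all 13128 genes tested). The share called was 28.9% of the 38, against 20.9% of all genes tested. The median standard error was 0.10 among the 38 and 0.13 among all genes tested, and a smaller error makes a call easier. Its part in the shares was not tested. In the single directions, 8.79% of all genes were called higher and 12.1% lower, against 10.5% and 18.4% of the 38. Their median log2 fold change was 0.03, against 0.01 for all genes tested, and their quartiles were -0.17 and 0.19, against -0.20 and 0.21. In these bulk samples, fewer transcripts per cell and fewer cells that express a gene cannot be told apart.

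**Figure D1:**
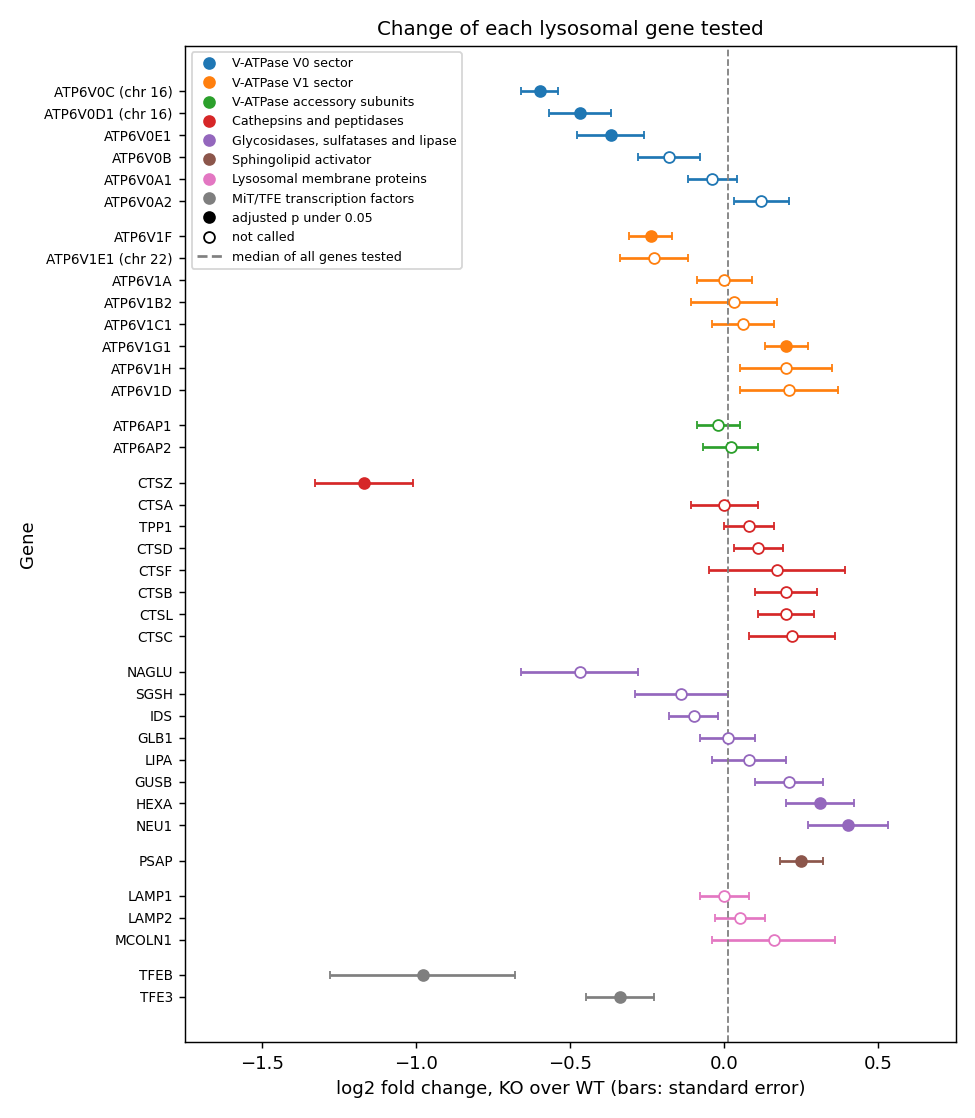
Log2 fold change, KO over WT, of the 38 lysosomal genes tested, grouped by role, with bars for the standard error (2 libraries per genotype). Filled points had an adjusted p under 0.05; CTSZ at -1.17 and TFEB at -0.98 lie farthest to the left, and no gene lies above 0.40.

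The split of directions depended on the scaling. With counts scaled by library size alone in place of TMM (edgeR's trimmed mean of M values, which takes most genes to be unchanged), 7 of the 38 were called higher and 4 lower, and the same scaling turned all genes from 1154 higher and 1594 lower to 2081 higher and 1158 lower. With any 1 library left out, fewer of the 38 were called, and so were fewer of all genes. DESeq2 called 5 (13.2% of the 38), of which 1 was higher and 4 were lower, and 1755 of the 13128 genes. At an adjusted p under 0.01 edgeR called 4 of the 38 (10.5%) and 1594 of the 13128 genes. The larger share among the 38 was thus seen at the main threshold and was not tested. CTSZ, ATP6V0C, ATP6V0D1 and PSAP passed in all 7 alternatives with a test, and the first 3 of them also with each library left out.

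Of the 39 genes, 3 lie on chromosomes 16 and 22 (GENCODE 44 on GRCh38), where most tested genes were lower in KO cells. THUMPD1, the edited gene, also lies on chromosome 16. The median log2 fold change was -0.44 over 573 tested genes of chromosome 16 and -0.42 over 311 of chromosome 22, and 54.0% of these 884 genes were called lower. ATP6V0C and ATP6V0D1 on chromosome 16 were called lower, and ATP6V1E1 on chromosome 22 had a log2 fold change of -0.23 (standard error 0.11) and did not pass. The part of these chromosomes in the values of the 3 genes was not tested. On the other chromosomes 4 of 35 tested members were higher and 5 lower (14.3%), against 9.33% and 9.11% of all genes placed there.

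**Figure D2:**
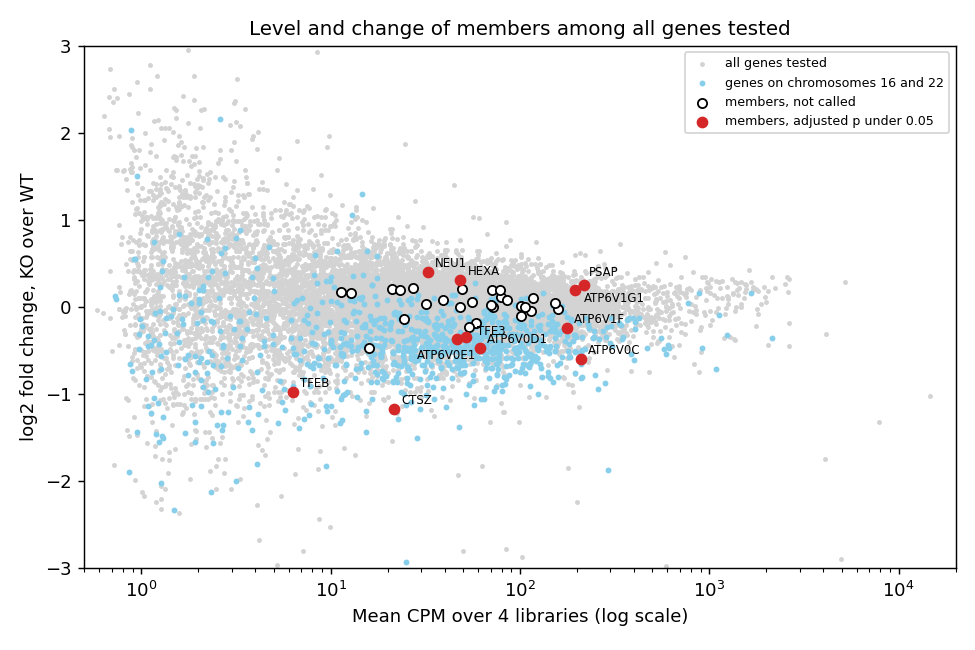
Log2 fold change, KO over WT, against the mean CPM over 4 libraries (log axis) for all 13128 genes tested (grey), those on chromosomes 16 and 22 (blue) and the members (circles, red where the adjusted p was under 0.05). The called members other than TFEB and CTSZ lie within 0.60 of 0, and TFEB has the lowest level of the members plotted; 22 genes fall outside the axes.

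Transcripts of both transcription factors were lower in KO cells. TFEB, which drives lysosome formation and autophagy, was counted 71 and 83 times in WT and 54 and 40 times in KO libraries, or 9.26 and 7.55 CPM against 4.66 and 3.76 CPM. Both KO libraries lay below both WT libraries, with means of 8.41 ± 1.21 CPM and 4.21 ± 0.642 CPM (KO the lower; SD, n = 2 libraries each). The log2 fold change of TFEB was -0.98 (standard error 0.30, edgeR adjusted p = 0.0209). TFE3, its paralog on the X chromosome, had 53.9 and 62.5 CPM in WT and 42.2 and 50.3 CPM in KO libraries. The genotypes did not overlap, but the replicates of either genotype stood farther apart than the nearest KO and WT libraries did. Its log2 fold change was -0.34 (standard error 0.11, edgeR adjusted p = 0.0309). The 10 tested genes nearest to TFE3 (5 on each side) had a median of -0.24 and ran from -2.80 to 0.82, with 3 called lower. Around TFEB the 10 nearest had a median of 0.18, with 2 called higher. The part of these neighbourhoods in the values of the 2 factors was not tested.

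The calls of TFEB and TFE3 were close to the threshold. Over the 7 alternatives the adjusted p of TFEB ran from 0.00907 to 0.0622 and that of TFE3 from 0.0099 to 0.119. DESeq2 called neither, and TFE3 was also not called with library size alone (-0.26) or limma-voom (-0.32), so that 4 of the 7 alternatives called it, against 6 for TFEB. TFEB passed only without WT replicate 2 among the fits with a library left out, with log2 fold changes from -1.15 to -0.84. TFE3 was not called without WT replicate 2 (-0.22) or without KO replicate 1 (-0.21). Per kilobase of transcript, the level of TFE3 was 15.9 CPM and that of TFEB 2.70 CPM, means over 4 libraries. MITF, the melanocyte member of the family, was at 3.48 CPM per kilobase and at a log2 fold change of -0.34 (standard error 0.18) and was not called.

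The factors act through the E-box, and the promoter table of RefSeq (250 bases before to 50 after each start site, GRCh38.p14) held 28 of the 39 genes, with 34 promoters. ATP6V0E1, ATP6V1A, ATP6V1B2, ATP6V1C1, ATP6V1H, CTSB, HEXA, LAMP2, NAGLU, PSAP and SGSH were not among them. The core E-box CACGTG, which reads the same on both strands, stood in 9 of the 34 promoters, each of a different gene, and in 7.26% of all 35116 promoters of the same length. The longer form GTCACGTG, or CACGTGAC on the other strand, contains the core and stood in 7 of the 34 and in 2.4% of all. The 9 genes with a core were ATP6V0B, ATP6V0D1, ATP6V1G1, CTSA, CTSD, CTSF, LAMP1, MCOLN1 and NEU1, and all but CTSF and NEU1 had the longer form. A match of letters is a description and not a site shown to be bound.

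Stretches of 6 of these promoters, all upstream of the start site, are shown because they hold the motif in the structural gene LAMP1 and the channel gene MCOLN1, in CTSA, and in the 3 genes with a motif that passed the test. They lie at chr13:113297023-113297126 (plus strand), chr19:7522559-7522623 (plus strand), chr20:45891269-45891334 (plus strand), chr9:114587687-114587740 (plus strand), chr6:31862918-31862971 (minus strand) and chr16:67481187-67481240 (minus strand). Each is read 5′ to 3′ on the strand of its gene, with every core E-box in capitals.
LAMP1: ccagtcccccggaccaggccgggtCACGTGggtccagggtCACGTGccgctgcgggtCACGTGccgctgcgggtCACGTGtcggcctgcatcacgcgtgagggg
MCOLN1: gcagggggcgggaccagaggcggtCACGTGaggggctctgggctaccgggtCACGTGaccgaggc
CTSA: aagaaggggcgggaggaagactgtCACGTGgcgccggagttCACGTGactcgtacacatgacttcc
ATP6V1G1: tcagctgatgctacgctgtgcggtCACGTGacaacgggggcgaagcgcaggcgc
NEU1: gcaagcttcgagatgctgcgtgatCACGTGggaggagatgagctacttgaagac
ATP6V0D1: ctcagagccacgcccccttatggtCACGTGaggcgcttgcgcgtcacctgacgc

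LAMP1 held 6 copies of the core in its 300 bases, of which 4 stand in the stretch shown, and MCOLN1 and CTSA held 2 each. The genes with a motif moved in both directions. Their log2 fold changes ran from -0.47 (ATP6V0D1) to 0.40 (NEU1) with a median of 0.11, 2 called higher and 1 lower. The gene called lower was ATP6V0D1, which lies on chromosome 16. The next lowest, ATP6V0B at -0.18, was not called. The 18 tested genes without a core in this window had a median of -0.01, with 5 called lower, the 2 factors themselves among the 5. The groups were not compared by a test.

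The V0 sector of the pump held 3 of the 5 V-ATPase subunits that passed the test, all of them lower. ATP6V0C encodes the proteolipid of the proton-carrying ring and was the most abundant of the V0 genes per length, at 192 CPM per kilobase. It had 255 and 250 CPM in WT and 168 and 166 CPM in KO libraries. Replicates lay close together and the genotypes far apart, and the log2 fold change was -0.60 (standard error 0.06, edgeR adjusted p = 1.79e-07). ATP6V0D1, whose product sits between the ring and the stalk, had 74.1 and 69.2 CPM in WT and 53.1 and 50 CPM in KO libraries. Its log2 fold change was -0.47 (standard error 0.10, edgeR adjusted p = 0.000872). ATP6V0E1, a small membrane subunit encoded on chromosome 5, had 50.1 and 54.4 CPM in WT and 39.1 and 42 CPM in KO libraries. The genotypes did not overlap in any of the 3 genes, but these were chosen by the test on the same libraries. The share of all genes without overlap was not counted. The log2 fold change of ATP6V0E1 was -0.37 (standard error 0.11, edgeR adjusted p = 0.0161).

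The call of ATP6V0E1 was lost with DESeq2 and with library size alone (adjusted p from 0.00686 to 0.0679 over the 7 alternatives), and without WT replicate 2 or KO replicate 1. The 10 tested genes nearest to ATP6V0C (5 on each side) all had log2 fold changes of -0.37 or below, with a median of -0.63, and 7 of them were called lower. Around ATP6V0D1 the 10 nearest had a median of -0.25 and ran from -1.32 to 0.60, with 2 called lower, and around ATP6V0E1 a median of -0.08. Exons of ATP6V0C overlap 2 other annotated genes of the same strand, over 862 and 218 bases, that are not among the symbols counted.

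The other 3 V0 genes did not pass. ATP6V0B, a second proteolipid, was at 60.3 and 64.7 CPM in WT and 56.5 and 54.4 CPM in KO libraries, a log2 fold change of -0.18 (standard error 0.10). ATP6V0A1 and ATP6V0A2 encode alternative forms of the large subunit that places the pump in a given membrane. Their log2 fold changes were -0.04 (standard error 0.08) and 0.12 (standard error 0.09), and the libraries of the 2 genotypes overlapped in both. The direction of ATP6V0A1 was not settled, since it was 0.05 with library size alone and 0.02 with limma-voom. Among isoforms, ATP6V0A1 was at 28.1 CPM per kilobase and ATP6V0A2 at 12.2, while TCIRG1, the form of osteoclasts and immune cells, was at 1.16.

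Of the 8 V1 subunits, 1 was higher, 1 was lower and 6 did not pass. ATP6V1F, a small subunit of the stalk, had the highest level per length of all V-ATPase genes, 262 CPM per kilobase, on a transcript of 678 bases. It had 190 and 194 CPM in WT and 160 and 166 CPM in KO libraries, and the log2 fold change was -0.24 (standard error 0.07, edgeR adjusted p = 0.011). ATP6V1G1, part of the peripheral stalk that holds the sectors together, had 193 and 172 CPM in WT and 206 and 213 CPM in KO libraries. Here the WT replicates stood farther apart than WT replicate 1 and the lower KO library, and the log2 fold change was 0.20 (standard error 0.07, edgeR adjusted p = 0.0376).

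Both calls were lost in several settings. ATP6V1F was not called with library size alone, with limma-voom or without KO replicate 1 (adjusted p from 0.00264 to 0.0922 over the 7 alternatives). ATP6V1G1 was not called with DESeq2 (adjusted p from 0.00225 to 0.105) and was called in 1 of the 4 fits with a library left out, at 0.29 without WT replicate 1 (0.11 when WT replicate 2 was left out).

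The catalytic subunit ATP6V1A was at 71.9 and 72 CPM in WT and 69.3 and 74.3 CPM in KO libraries, a log2 fold change of 0.00 (standard error 0.09). ATP6V1B2, which pairs with it in the hexamer, was at 0.03 (standard error 0.14), and ATP6V1C1, whose product leaves V1 when the sectors part, at 0.06 (standard error 0.10). ATP6V1D of the central stalk was at 0.21 (standard error 0.16) and the regulatory subunit ATP6V1H at 0.20 (standard error 0.15), with the KO libraries above the WT libraries in both. The accessory subunits ATP6AP1, with 162 and 158 CPM in WT and 160 and 154 CPM in KO libraries, and ATP6AP2, which is also known as the prorenin receptor, were at -0.02 (standard error 0.07) and 0.02 (standard error 0.09).

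**Figure D3:**
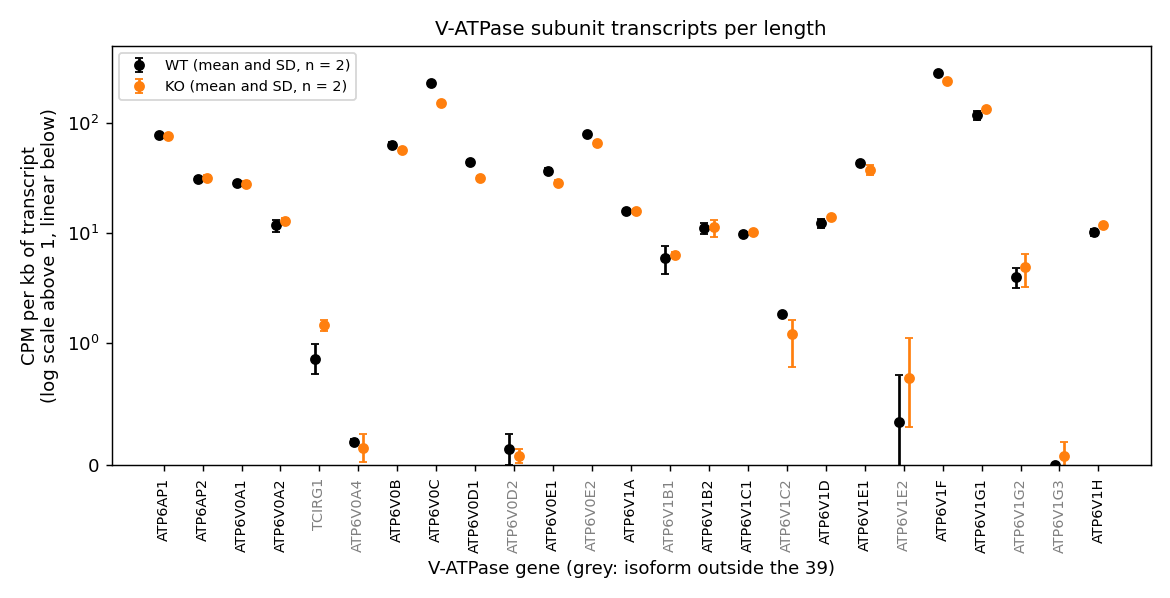
Level per length (CPM per kilobase of the canonical transcript, log axis above 1 and linear below) of each V-ATPase gene in WT (black) and KO (orange) cells, mean and SD over 2 libraries. ATP6V1F and ATP6V0C are highest at 262 and 192 CPM per kilobase over all libraries, and the isoforms outside the 39 (grey names) reach at most 6.15 apart from ATP6V0E2.

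Summed over the sector, V0 transcripts made up 622 and 641 CPM in WT and 522 and 500 CPM in KO libraries. V1 transcripts made up 644 and 620 CPM in WT and 620 and 640 CPM in KO libraries. V0 was lower in both KO libraries while V1 overlapped between genotypes. The ratio of V0 to V1 was 0.967 and 1.03 in WT and 0.843 and 0.781 in KO libraries (exact permutation test, two-sided, p = 0.333, the smallest that 2 against 2 libraries can give). Without the 3 members on chromosomes 16 and 22 the ratio was 0.5 and 0.574 in WT and 0.531 and 0.479 in KO libraries, and the genotypes overlapped.

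Among the 8 cathepsins and peptidases, 1 was lower and 7 did not pass (2 more were higher at an unadjusted p under 0.05, and DESeq2 called 1, lower). CTSZ encodes cathepsin Z, a cysteine carboxypeptidase also called cathepsin X, and had the lowest log2 fold change of all 38. It was counted 229 and 330 times in WT and 141 and 154 times in KO libraries, or 29.9 and 30 CPM against 12.2 and 14.5 CPM. The genotypes did not overlap, and the mean was 29.9 ± 0.115 CPM in WT against 13.3 ± 1.61 CPM in KO libraries (SD, n = 2 each). The log2 fold change of CTSZ was -1.17 (standard error 0.16, edgeR adjusted p = 6.15e-06), and it stayed between -1.30 and -1.05 with each library left out. CTSZ lies on the minus strand of chromosome 20 (58985686 to 59008238 on GRCh38, GENCODE 44). Of the 10 tested genes nearest to it 4 were called higher, and their median was 0.23 (range -0.92 to 0.52).

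The other 7 peptidases had log2 fold changes between 0.00 and 0.22. CTSD, the aspartic protease cathepsin D and the most abundant of the group per length (57.1 CPM per kilobase), was at 109 and 116 CPM in WT and 120 and 124 CPM in KO libraries. The KO libraries lay above the WT libraries, at a log2 fold change of 0.11 (standard error 0.08) that did not pass. Of the 2055 bases of CTSD, 1139 overlap a gene of the same strand that is not among the symbols counted. CTSB, CTSC and CTSL, cysteine proteases of the papain family, were at 0.20 (standard error 0.10), 0.22 (standard error 0.14) and 0.20 (standard error 0.09), and their libraries did not overlap either. With library size alone CTSB and CTSL were called higher, and CTSB also without KO replicate 2, and the KO replicates of CTSB stood apart, at 82.4 and 69.1 CPM, above 66.1 and 66 CPM in WT. TPP1, the tripeptidyl peptidase, was at 0.08 (standard error 0.08), CTSF at 0.17 (standard error 0.22) and the protective protein CTSA at 0.00 (standard error 0.11). Exons of CTSA overlap those of PLTP on the opposite strand over 199 bases, and reads of the 2 genes cannot be told apart there without strand.

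Of 8 tested enzymes that cleave glycans, sulfates or lipid esters, 2 were higher, NEU1 and HEXA, and 6 did not pass (1 of these was lower at an unadjusted p under 0.05, and DESeq2 called 0 of the 8). NEU1, the lysosomal sialidase, had 26.3 and 29.9 CPM in WT and 38.4 and 36 CPM in KO libraries. The log2 fold change of NEU1 was 0.40 (standard error 0.13, edgeR adjusted p = 0.0281), the highest of all 38. In the lysosome NEU1 works in a complex with CTSA and the β-galactosidase GLB1. GLB1, at 96.2 and 108 CPM in WT and 110 and 95 CPM in KO libraries, had a log2 fold change of 0.01 (standard error 0.09). HEXA, the α subunit of β-hexosaminidase, had 43.8 and 42.6 CPM in WT and 52 and 55.2 CPM in KO libraries. Its log2 fold change was 0.31 (standard error 0.11, edgeR adjusted p = 0.0366). DESeq2 called neither NEU1 (adjusted p from 0.00624 to 0.11 over the 7 alternatives) nor HEXA (from 0.00662 to 0.135). NEU1 was not called without WT replicate 1 or KO replicate 1, and HEXA in none of the 4 fits with a library left out, with log2 fold changes between 0.27 and 0.36. Exons of HEXA overlap an unnamed gene of the same strand over 617 bases and another of the opposite strand over 615.

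The sulfatases IDS and SGSH and the glucosaminidase NAGLU had log2 fold changes below 0 that did not pass. NAGLU had 16 and 20.7 CPM in WT and 14.6 and 12.1 CPM in KO libraries, a log2 fold change of -0.47 (standard error 0.19, edgeR adjusted p = 0.0752), and it was called lower only without WT replicate 1, at -0.63. IDS was at -0.10 (standard error 0.08) and SGSH at -0.14 (standard error 0.15). Of the 7580 bases of IDS, 6877 overlap a gene of the same strand that is not among the symbols counted. Some members not named in this respect have shorter overlaps. The β-glucuronidase GUSB was at 0.21 (standard error 0.11) and was called with library size alone (0.30). LIPA, the acid lipase that releases cholesterol from its esters, was at 0.08 (standard error 0.12). GLA, the α-galactosidase, was listed at 0 counts in all 4 libraries and could not be tested. A readthrough gene on the opposite strand, RPL36A-HNRNPH2, spans GLA and had between 7476 and 10452 counts. Whether those counts hold reads of GLA was not tested.

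PSAP is the precursor of the saposins that present sphingolipids to these enzymes. Outside the V-ATPase it was the most abundant member per length, at 79.2 CPM per kilobase. It had 191 and 206 CPM in WT and 230 and 243 CPM in KO libraries, without overlap. The log2 fold change of PSAP was 0.25 (standard error 0.07, edgeR adjusted p = 0.00755). It was not called without WT replicate 1 or without KO replicate 2, at 0.20 and 0.21.

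**Figure D4:**
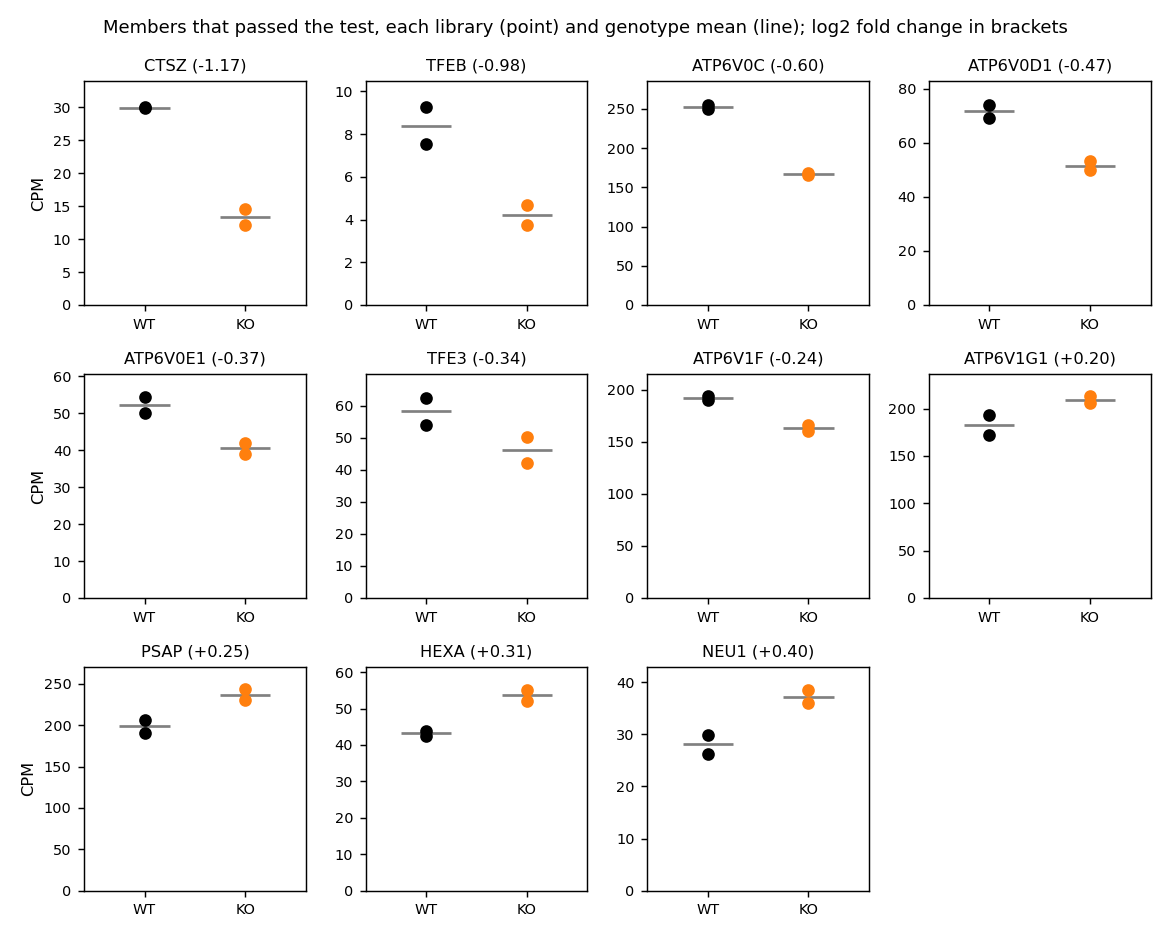
CPM of the 11 members that passed the test in each of the 2 WT (black) and 2 KO (orange) libraries, with a grey line at the mean of each genotype and axes from 0. The genotypes do not overlap in any panel, but the genes were chosen by the test on these same libraries. The gap is widest relative to the level in CTSZ (29.9 against 13.3 CPM) and TFEB (8.41 against 4.21 CPM).

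Of the 3 membrane proteins 0 passed edgeR's test, with 0 at an unadjusted p under 0.05 and 0 with DESeq2. LAMP1, a heavily glycosylated protein that lines the lysosomal membrane, was at 102 and 110 CPM in WT and 109 and 103 CPM in KO libraries, and its log2 fold change was 0.00 (standard error 0.08). LAMP2, which also serves chaperone-mediated autophagy, was at 165 and 138 CPM in WT and 159 and 153 CPM in KO libraries, at 0.05 (standard error 0.08). MCOLN1, the calcium channel mucolipin 1, was at 0.16 (standard error 0.20). The WT libraries of LAMP2 enclosed both KO libraries.

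Other lysosomal genes were counted in lists by role. Of 31 tested hydrolases outside the 39, 1 was higher and 4 lower, with a median log2 fold change of -0.12. At an unadjusted p under 0.05 in edgeR 8 were higher and 8 lower, and with DESeq2 0 were higher and 4 lower. LGMN, the asparaginyl endopeptidase that processes cathepsins, fell most, from 128 and 153 CPM in WT to 56.2 and 57 CPM in KO libraries. The log2 fold change of LGMN was -1.32 (standard error 0.09, edgeR adjusted p = 5.29e-11), and it was called in all 7 alternatives and with each library left out.

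Of 22 tested membrane proteins in the second list, 5 were lower and 0 higher in edgeR (8 and 0 at an unadjusted p under 0.05, 3 and 0 with DESeq2), with the chloride transporter CLCN7 on chromosome 16 lowest at -0.76 (standard error 0.13, edgeR adjusted p = 0.000112). Among 12 tested V-ATPase isoforms and assembly factors, 2 were lower and 10 did not pass. These were ROGDI on chromosome 16, at -0.70 (standard error 0.20, edgeR adjusted p = 0.0137), and ATP6V0E2, named after its value was seen as the isoform of ATP6V0E1, at -0.29 (standard error 0.07, edgeR adjusted p = 0.00537). ROGDI was not called without WT replicate 2 (-0.55) or KO replicate 2 (-0.48), nor ATP6V0E2 without KO replicate 2 (-0.24). Both genes of the V0 e subunit were called lower, and ATP6V0E2 was the more abundant per length, at 72.5 against 32.7 CPM per kilobase.

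In a list of TFEB and TFE3 control by the Rag GTPases, which also holds their paralog MITF, 2 of 11 tested genes were lower, both of the Ragulator complex that anchors the Rags to the lysosome. LAMTOR4 had 106 and 99.5 CPM in WT and 74.2 and 78.1 CPM in KO libraries, a log2 fold change of -0.43 (standard error 0.08, edgeR adjusted p = 0.000473). LAMTOR5, named after its value was seen, was at -0.37 (standard error 0.08, edgeR adjusted p = 0.00134). LAMTOR2 was at 0.00 (standard error 0.07), LAMTOR3 at 0.20 (standard error 0.13), and LAMTOR1 was listed at 0 counts in all 4 libraries. Of the 18917 genes counted, 1875 were at 0 in every library. Whether reads of LAMTOR1 were assigned elsewhere or dropped was not tested. In the sorting of enzymes by mannose 6-phosphate 3 of 9 genes were lower, all 3 on chromosomes 16 and 22, with GNPTG lowest at -0.67 (standard error 0.14). Among 6 genes of the HOPS tethering complex and 8 of the autophagy receptors and LC3 family, 0 passed edgeR's test and 0 DESeq2's, while 2 of the HOPS genes were higher at an unadjusted p under 0.05. Over all these lists, 16 of 99 tested genes were lower (16.2%, against 12.1% of all genes tested) and 1 was higher (1.01%, against 8.79%). Of the 16, 7 lie on chromosomes 16 and 22, and off these 9 of 86 were lower (10.5%, against 9.11% of all genes placed there).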

How the data were processed

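Total RNA of 2 WT and 2 THUMPD1 KO libraries was sequenced as paired ends, and the sample titles gave genotype and replicate. What the authors deposited are raw counts, as whole numbers for each gene symbol, without normalization. The submitters' processing notes name the build hg19, while the study's methods name STAR and RSEM on GRCh38, so which pipeline made the counts, and whether it used strand, is not known here. The ribosomal RNA depletion kit also differs between labels and methods, and of the 3 samples a genotype in the methods 2 were analysed. A deposited table of the authors' own comparison (log2 fold changes, p-values) was not used.

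Genes reaching 1 CPM in 2 or more libraries (13128 of 18917) were tested in R 4.3.3 with edgeR 4.0.16 (TMM, glmQLFit and glmQLFTest, no covariate), with Benjamini-Hochberg adjustment over all of them and a threshold of 0.05. The standard error is the size of the fitted log2 coefficient divided by the square root of F. CPM use TMM-scaled library sizes, and levels per length the canonical transcript of GENCODE 44 on GRCh38, which may differ from the models counted. GENCODE 44 also placed 13013 tested genes. Floors of 3 counts cover counting error only. Replicates differed by more than sampling noise (chi-square over degrees of freedom 4.15 in WT, 7.21 in KO), and all 4 libraries were kept. The test was tried on simulated data first.

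Alternatives were library size alone, upper quartile, no filter, a minimum of 10 counts in every library, a replicate block, DESeq2 1.42.0 and limma-voom with quantile normalization (limma 3.58.1), which are the 7 with a test of each gene, and also a threshold of 0.01, omission of chromosomes 16 and 22, and each library left out (the lone library is then assumed to vary like the others). Values in every library are given for called members, TFEB, TFE3 and the most abundant member per length of each role, and for some others to show their spread. Overlap between the libraries of the genotypes is a description only, and its share over all genes was not counted. In each further list the called genes with the largest rise and fall at a mean of at least 5 CPM are named, unless stated, and 1 gene that this rule names is not reported here. The members and lists were chosen with earlier results of these data known. RNASEK and FNIP1 of the lists had no match among the symbols. Reads shared with pseudogenes were not examined.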

Additional observations from a re-analysis of the deposited data

How the results depend on the processing

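The 11 calls among the 38 lysosomal genes (4 higher, 7 lower) became 5 with DESeq2 (1 higher, 4 lower), 4 at an adjusted p under 0.01 (1 higher, 3 lower), and 7 higher with 4 lower under library size alone. With a library left out they ran from 4 to 8, the higher ones from 1 to 2 and the lower ones from 3 to 7. All genes called, 2748, became 1755 with DESeq2 and 1594 at an adjusted p under 0.01, and ran from 1620 (without KO replicate 1) to 2591 with a library left out. A stricter threshold can only remove calls. For DESeq2, library size alone and the libraries left out, the cause was not tested. The median of the members, 0.03, was 0.11 with library size alone, where all genes moved from 0.01 to 0.09. It was 0.05 with the upper quartile, with limma-voom and without chromosomes 16 and 22, and from 0.01 to 0.04 with a library left out.

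Directions changed in genes near 0 that were not called. ATP6V0A1 was at 0.05 with library size alone, 0.02 with limma-voom and 0.02 without KO replicate 2. ATP6AP1 was at 0.06 with library size alone and 0.03 with limma-voom. With a library left out, ATP6V1B2 ran from -0.16 (without KO replicate 2; -0.09 without WT replicate 2) to 0.21, and ATP6AP2 from -0.04 (without KO replicate 2; -0.01 without WT replicate 1) to 0.07. GLB1 was at -0.07 without WT replicate 1 and -0.10 without KO replicate 1, and LAMP2 ran from -0.08 without WT replicate 2 to 0.17 without WT replicate 1. The replicate numbers mark no shared culture, and the deviations of same-numbered libraries had a correlation of 0.03. With the replicate number as a block, 11 members were called (4 higher, 7 lower), with a median of 0.03, and 3222 genes in all, and no member changed its call. Members below about 100 counts per library, such as TFEB, are limited by depth.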
